A study of Saccharomyces cerevisiae with 16 samples.

Results

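The 34 genes described here encode the yeast proteasome or carry its gene names. They are the genes whose symbol is PRE, PUP, RPN or RPT followed by a number, together with *SCL1*, and they were taken by name from the 6256 genes with a probe on the array. The rule uses names only and no measured value, although earlier results of these data were known when it was set. The set holds 7 genes of the α ring of the core particle, 7 of its β ring, 6 ATPases of the regulatory particle, 4 other subunits of the base of that particle and 8 subunits of its lid. The same names also cover *RPN14*, which is not a stable part of the particle, and *RPN4*, a transcription factor. The 32 genes other than *RPN4* and *RPN14* are called particle subunits here. All 34 probes were well above background on all 16 arrays, so none of their values is a bound.

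The proteasome degrades proteins that carry chains of ubiquitin. Its core is a barrel of stacked rings in which the inner β rings hold the proteolytic sites and the outer α rings guard the entrance, and the regulatory particle on its end binds the chain, removes it, unfolds the substrate and feeds it in. In budding yeast the transcription factor Rpn4 binds an element found in front of most proteasome genes and activates them, and Rpn4 is itself a substrate of the proteasome with a short life, so that its level and the number of proteasomes are linked. In meiosis the proteasome degrades regulators such as the cell cycle inhibitor Sic1. E3 ligases, among them the SCF and the anaphase-promoting complex, mark its substrates.

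Total RNA was measured at 0, 2, 4, and 6 h after transfer of diploid cells to sporulation medium, on 16 single-color Agilent arrays, with 2 arrays for each strain and time. The mutant was YGB221, in which both copies of *IME2*, a meiosis-specific protein kinase gene, were replaced by *TRP1* (*ime2Δ::TRP1*/*ime2Δ::TRP1*), and the WT strain was DSY1089. Both were *MATa/MATα* diploids of the SK1 background that carried his4B/his4X, arg4-BglII/arg4-NspI, trp1::hisG, leu2::hisG, ura3, lys2 and ho::LYS2. Both strains grew in glycerol, glucose and acetate media in turn, and the sporulation medium held potassium acetate and raffinose. Replicates 1 and 2 came from 2 independent experiments, and the arrays of each number lay on a slide of their own. The authors describe aliquots harvested at regular times. Whether the times of a strain and replicate share a culture is not stated outright. The strains lay in different columns of both slides, so strain and slide column cannot be told apart. The p-values rest on the spread between the 2 arrays of a group, pooled over all groups and in part over genes. They treat the arrays as independent, although same-numbered replicates deviated together in part.

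Values are log2 signals relative to the median of the array, where 0 is the array's median gene, and a difference of 1 is a 2-fold difference in signal. Groups were compared with limma across 6254 genes, all but *IME2* and *TRP1*, and a gene was called where its p, adjusted by Benjamini-Hochberg over those genes, was under 0.05. The share of all tested genes called in the same direction is given beside the counts over the 34 genes and once for the smaller groups. RNA came from whole cultures, and fewer cells of a type cannot be told apart from less RNA per cell.

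The targeted gene followed the labels. *IME2* lay between -11.99 and -11.12 on the 8 *ime2Δ* arrays, where the scanner marked it as not well above background, and between 2.48 and 5.43 on the WT arrays. *TRP1*, the replacing marker, lay between 0.49 and 1.63 in *ime2Δ* cells and between -1.55 and 0.41 in WT cells. Markers of meiotic stage moved with the strains. All 7 early meiotic genes (*HOP1*, *RED1*, *ZIP1*, *DMC1*, *SPO11*, *REC8*, and *SPO13*) were higher at 4 and 6 h than at 0 h in both strains, and 4 of them were lower in *ime2Δ* than in WT cells at 0 h and 4 at 4 h. The log2 of their summed signal lay between 0.33 and 5.95 over the *ime2Δ* arrays and between 1.35 and 6.51 over the WT arrays. All 6 middle meiotic genes (*NDT80*, *SPS1*, *SPS4*, *CLB1*, *SMK1*, and *SSP1*) were lower in *ime2Δ* than in WT cells at 4 h (median -5.58) and at 6 h (median -8.38). The log2 of their summed signal stayed between -0.32 and 0.75 on the *ime2Δ* arrays, and in WT cells it was 2.07 and 2.40 at 0 h, 2.44 and 2.25 at 2 h, 5.32 and 5.56 at 4 h, and 7.52 and 7.75 at 6 h. Both strains are diploid, and of 5 haploid-specific genes 1 was higher and 3 were lower in *ime2Δ* than in WT cells at 4 h, with summed signals of log2 0.79 to 2.11 in *ime2Δ* cells and 1.096 to 4.966 in WT cells. The top of the WT range was at 6 h, where the highest gene read 4.45 and 4.55 and the medians were 0.91 and 0.86. The strain differences at 4 h were 0.48 for *STE2*, 0.47 for *STE6*, -0.48 for *BAR1*, -0.74 for *MFA1*, and -1.64 for *MFA2*, all a-specific. For the α-specific genes they were -0.19 (*SAG1*), -2.56 (*STE3*), and -2.78 (*MF(ALPHA)1*). The part of these markers in the proteasome results was not tested.

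The first question was how the proteasome genes moved after the transfer. Relative to the array median, a minority was called higher in *ime2Δ* cells. At 2 h, 7 of the 34 genes were higher and 1 was lower than at 0 h, beside 17.6% and 22.1% of all genes. At 4 h, 11 were higher and 1 was lower, beside 23.4% and 26.9% of all genes, and at 6 h, 15 were higher and 1 was lower, beside 24.5% and 30.1% of all genes. The 20.6% of the set that was higher at 2 h in *ime2Δ* cells is thus near the share of all genes. In WT cells nearly the whole set was called higher at 4 and 6 h. At 2 h, 17 were higher and 1 was lower than at 0 h, beside 22.2% and 27.2% of all genes. At 4 h, 32 were higher and 1 was lower, beside 30.7% and 31.8% of all genes, and at 6 h, 30 were higher and 1 was lower, beside 35.3% and 35.7% of all genes. The 1 gene that fell was *RPN4* in each of these 6 comparisons, although its fall in WT cells at 4 h was not called after quantile normalization.

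The size of the change followed the same order. The 34 genes had median changes from 0 h of 0.28, 0.28, and 0.40 at 2, 4, and 6 h in *ime2Δ* cells, where all genes had -0.06, -0.05, and -0.10. In WT cells the medians were 0.52, 1.18 (2.26-fold), and 0.75 (1.68-fold), where all genes had -0.10, -0.02, and -0.01. The WT median was thus highest at 4 h, and the *ime2Δ* median was under the WT median at each time, an order that turned at 6 h after quantile normalization (0.78 in *ime2Δ* cells and 0.70 in WT cells). The median level of the 34 genes on the *ime2Δ* arrays was 2.29 and 2.36 at 0 h, 2.62 and 2.60 at 2 h, 2.55 and 2.78 at 4 h, and 2.74 and 2.76 at 6 h. On the WT arrays it was 2.38 and 2.41 at 0 h, 2.81 and 2.95 at 2 h, 3.29 and 3.69 at 4 h, and 3.09 and 3.25 at 6 h. All *ime2Δ* arrays after 0 h lay below all WT arrays after 0 h in this median.

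**Figure D1:**
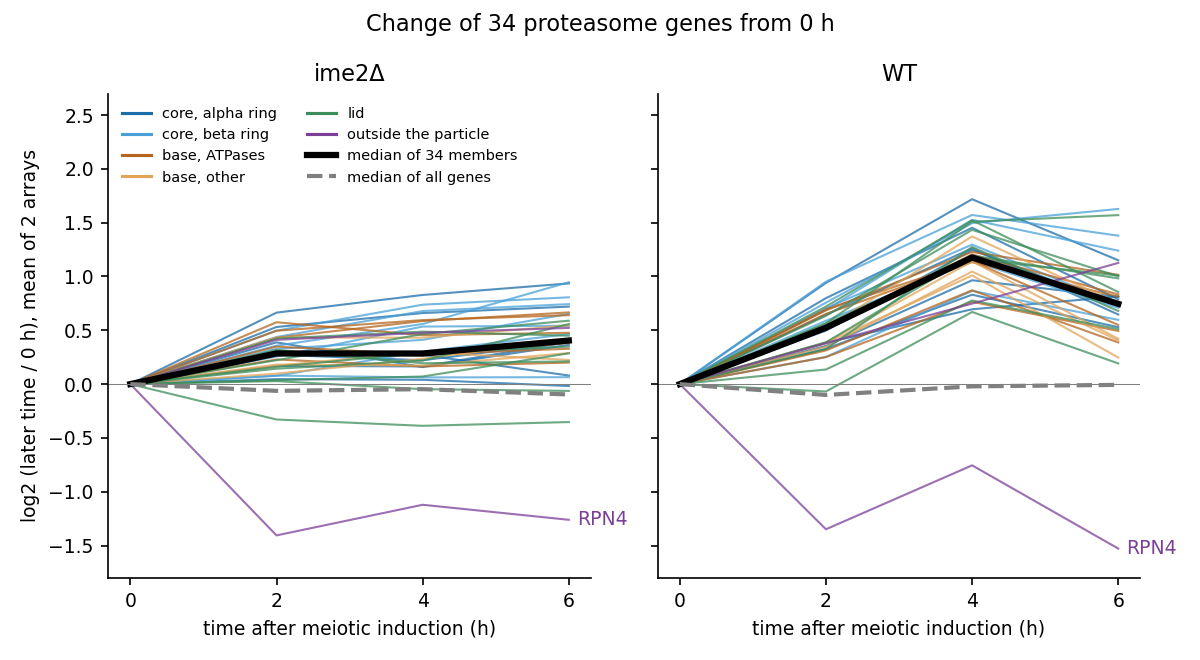
Mean log2 change from 0 h (y axis) against hours after transfer to sporulation medium (x axis) for the 34 genes, in *ime2Δ* cells on the left and WT cells on the right, with 1 line for a gene coloured by its place in the particle, the median of the 34 in black and the median of all genes dashed in grey. The black line stands at 0.28, 0.28, and 0.40 in *ime2Δ* cells and at 0.52, 1.18, and 0.75 in WT cells, and *RPN4* is the lowest line in both panels.

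The counts in *ime2Δ* cells and at 2 h in WT cells depended on single arrays and on the scaling. For *ime2Δ* cells, 1 gene (without replicate 1 at 2 h) to 5 genes were called at 2 h once 1 of the 4 arrays compared was left out. At 4 h it was 5 genes without replicate 2 at 4 h, 7 without either array at 0 h, and 12 without replicate 1 at 4 h, and at 6 h it was 7 without replicate 1 at 6 h, 10 without replicate 1 at 0 h, and up to 13 otherwise. For WT cells the same step left 10 to 12 genes at 2 h, 33 at 4 h whichever array was left out, and 24 to 27 at 6 h. Relative to the 75th percentile of each array, 19, 22, and 26 genes were higher at 2, 4, and 6 h in *ime2Δ* cells (median changes 0.54, 0.54, and 0.67) and 31, 33, and 28 in WT cells (0.78, 1.38, and 0.71). After quantile normalization it was 20, 26, and 27 in *ime2Δ* cells (0.57, 0.65, and 0.78) and 30, 33, and 27 in WT cells (0.88, 1.56, and 0.70), so that a majority of the set was higher in *ime2Δ* cells under both. At the 75th percentile the median changes of all genes were 0.19, 0.21, and 0.17 in *ime2Δ* cells and 0.16, 0.19, and -0.04 in WT cells. After quantile normalization they were -0.01 at 2 h in *ime2Δ* cells and -0.05, -0.04, and -0.11 in WT cells. Of the 6254 genes, 1803 were higher at 2 h in *ime2Δ* cells at the 75th percentile and 1166 after quantile normalization. In WT cells at 2, 4, and 6 h it was 1996, 2309, and 2143 at the 75th percentile and 1473, 1931, and 2034 after quantile normalization.

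The WT rise was spread over the steps from 0 to 2 h and from 2 to 4 h. In *ime2Δ* cells no gene of the set was called between 2 and 4 h or between 4 and 6 h, where limma called 0.576% of all genes higher and 0.799% lower at 4 h than at 2 h, and 0% in either direction at 6 h against 4 h. None of the 34 had an unadjusted p under 0.05 in either step. In WT cells 25 genes were higher at 4 h than at 2 h and 0 were lower, beside 14.1% and 12% of all genes. The median difference of that step was 0.64, against 0.52 from 0 to 2 h, and the first step was the larger at the 75th percentile (0.58 against 0.78) and after quantile normalization (0.71 against 0.88). From 4 to 6 h the set declined in WT cells, with 0 genes higher and 16 lower, beside 26.4% and 28.7% of all genes, and a median difference of -0.43 where that of all genes was -0.15. The count of 25 was 6 without WT replicate 1 at 2 h, 16 without WT replicate 2 at 2 h, and 13 without WT replicate 2 at 4 h, and the count of 16 was 7 without WT replicate 2 at 4 h and 8 without WT replicate 1 at 6 h.

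The time of the highest mean was read for each gene. In *ime2Δ* cells 2 of the 34 genes had their highest mean at 0 h (*RPN4* and *RPN11*), while 9 had it at 2 h, another 2 at 4 h, and the largest number, 21, at 6 h. In WT cells 1 had it at 0 h (*RPN4*), 29 at 4 h, and 4 at 6 h (*PRE3*, *PUP2*, *RPN8*, and *RPN14*). Of all genes, 45.3%, 12.6%, 15.8%, and 26.3% had their highest mean at 0, 2, 4, and 6 h in *ime2Δ* cells, and 36.2%, 13.3%, 18.9%, and 31.5% in WT cells.

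The strains were then compared at each time, on the same arrays. At 0 h the strains did not differ detectably: 0 genes were higher and 0 lower in *ime2Δ* than in WT cells by limma, beside 1.41% and 3.26% of all genes, and 0 of the 34 had an unadjusted p under 0.05. The median difference was -0.04. At 2 h, 0 were higher and 1 was lower, beside 4.54% and 9.05% of all genes, with a median of -0.28 and 6 genes at an unadjusted p under 0.05. The gene called at 2 h was *PRE1*, which was not called once any 1 of the 4 arrays was left out.

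At 4 h, 31 of the 34 genes were lower in *ime2Δ* than in WT cells and 0 were higher, beside 16.9% lower and 14.2% higher of all genes. The median difference was -0.85, a ratio of 0.554, where the median of all genes was 0.01. The exceptions were *PUP2*, *RPN4*, and *RPN14*. Both *ime2Δ* arrays lay below both WT arrays for 33 of the 34 genes, all but *PUP2*, and for 33.5% of all genes. The same held for 7, 29, and 27 of the 34 at 0, 2, and 6 h, beside 27.9%, 28.5%, and 38.4% of all genes. The separation at 2 h thus covered most of the set, although 1 gene was called then. At 4 h the differences of the set lay close together, with an SD over the 34 genes of 0.245, against 1.086 over all genes. The count of 31 was 20 without *ime2Δ* replicate 1 at 4 h, 23 without WT replicate 2 at 4 h, and 31 or 32 without either of the other 2 arrays. The strain difference at 4 h was read under 15 settings. These were the reported one, other ways of processing or fitting, omission of 1 array, and a log2 difference of at least 1. *PRE1*, *PRE5*, *PRE8*, *PRE9*, *RPN8*, *RPN9*, *RPN11*, and *RPN12* were called lower in each, *PUP2* in 1, and *RPN4* and *RPN14* in 0. *PRE6*, *PRE7*, *PRE10*, *PUP3*, *RPN2*, *RPN6*, *RPN10*, *RPN13*, *RPT2*, *RPT3*, and *RPT4* were called lower in 14 and missed only the cutoff on the size of the difference.

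**Figure D2:**
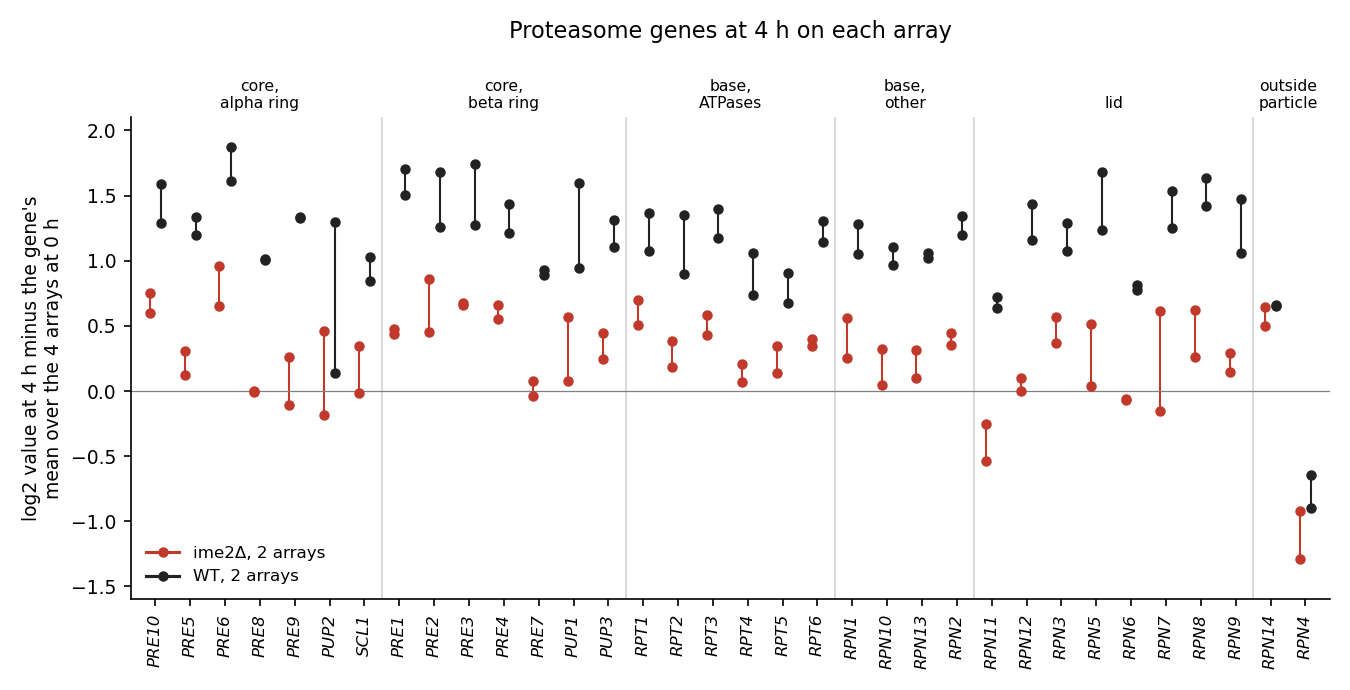
Log2 signal at 4 h on each array minus the mean of the same gene over the 4 arrays at 0 h (y axis), for each of the 34 genes (x axis), with the 2 *ime2Δ* arrays and the 2 WT arrays as points. The *ime2Δ* points lie below the WT points in every gene but *PUP2*, and *RPN4* alone lies below 0 on all 4 arrays.

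At 6 h the difference was smaller and depended on the scaling of the arrays. Relative to the array median, 0 genes were higher and 14 lower in *ime2Δ* than in WT cells, beside 33.1% and 31.1% of all genes, with a median of -0.34 (a ratio of 0.789) where the median of all genes was 0.10. Relative to the 75th percentile of each array, 1 gene was higher and 5 were lower with a median of -0.06, and after quantile normalization 3 were higher and 2 lower with a median of 0.15. The scaling moved all genes with the set, so that the median of all genes became 0.38 at the 75th percentile and 0.29 after quantile normalization, and the set stood -0.44, -0.44, and -0.14 from it in the 3 scalings. Only *RPN8* (-1.02, -0.74, and -0.50) and *PRE8* (-0.92, -0.64, and -0.48) were called lower in all 3. The count of 14 was 10 without *ime2Δ* replicate 1 or WT replicate 2 at 6 h. At 4 h the set stood -0.87, -0.87, and -0.95 from the median of all genes, with 31 genes lower and 0 higher in each scaling.

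**Figure D3:**
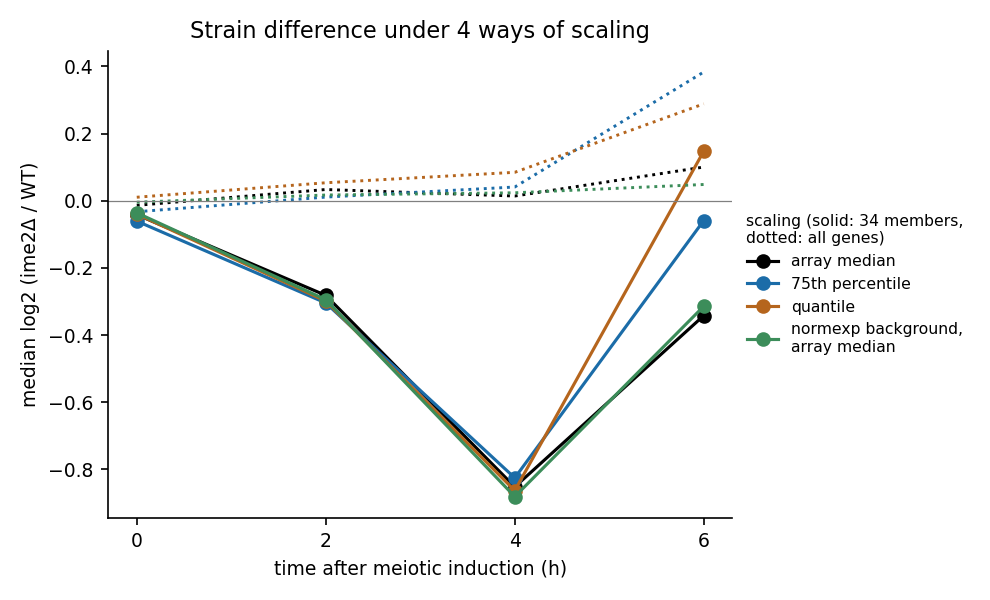
Median log2 (*ime2Δ*/WT) of the 34 genes (solid) and of all genes (dotted) on the y axis at 0, 2, 4, and 6 h on the x axis, for 4 ways of scaling or processing the arrays. The solid lines lie between -0.88 and -0.82 at 4 h and spread at 6 h, where they include -0.34, -0.06, and 0.15.

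Whether the change from 0 h itself differed between the strains was tested as a difference of differences. At 2 h, 0 genes changed more in *ime2Δ* than in WT cells and 0 changed less by limma, beside 0.863% and 2.46% of all genes, with 1 gene at an unadjusted p under 0.05. At 4 h, 0 genes changed more and 19 less, beside 6.2% and 9.37% of all genes, with a median of -0.82. At 6 h, 0 changed more and 8 less, beside 25.1% and 25% of all genes, with a median of -0.38, so that the count at 6 h is near the share of all genes. The count of 19 was 4 without *ime2Δ* replicate 1 at 4 h or without WT replicate 2 at 0 h, 8 and 9 without replicate 1 at 0 h of WT and of *ime2Δ* cells, 10 without WT replicate 2 at 4 h, and 11 without *ime2Δ* replicate 2 at 0 h. The count of 8 was 2 without WT replicate 2 at 0 h, 5 without WT replicate 1 at 0 h or *ime2Δ* replicate 1 at 6 h, and 4 without either *ime2Δ* array at 0 h, WT replicate 1 at 6 h, or *ime2Δ* replicate 2 at 6 h. The strain difference at 4 h and this test share arrays and are not independent of each other.

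Against 0 h, *RPN4* moved the opposite way from the median of the particle subunits. Its log2 signal in *ime2Δ* cells was 3.52 and 3.89 at 0 h, 2.07 and 2.53 at 2 h, 2.40 and 2.77 at 4 h, and 2.30 and 2.58 at 6 h. The WT arrays were at 3.64 and 3.70 at 0 h, 2.17 and 2.47 at 2 h, 2.79 and 3.04 at 4 h, and 1.99 and 2.29 at 6 h. Every array after 0 h lay below every array at 0 h in both strains, and the strains overlapped at 0 and 2 h only. By limma *RPN4* fell in *ime2Δ* cells by 1.41, 1.12, and 1.26 at 2, 4, and 6 h (SE 0.22 each, n = 2 arrays a group, adjusted p 0.000382, 0.00109, and 0.000425). It fell in WT cells by 1.35, 0.75, and 1.53 (SE 0.22 each, adjusted p 0.000321, 0.00973, and 3.95e-05). Within WT cells the 4 h arrays were the highest after 0 h. The step from 2 to 4 h was 0.59 ± 0.22 (adjusted p = 0.067) and that from 4 to 6 h was -0.77 ± 0.22 (adjusted p = 0.0109), each with the sign of the set's median for that step (0.64 and -0.43). The fall in WT cells at 4 h was not called without WT replicate 1 at 4 h (-0.63, adjusted p = 0.069) or after quantile normalization. The strains did not differ detectably in *RPN4*, with -0.33 at 4 h (adjusted p = 0.282) and 0.30 at 6 h (adjusted p = 0.248). The 6 h difference was called higher in *ime2Δ* cells under the other 2 scalings, at 0.58 for the 75th percentile and 0.67 after quantile normalization. The level of Rpn4 protein was not measured.

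The genes are given next by their place in the particle. For these groups and the lists after them, the shares of all genes called higher and lower were 23.4% and 26.9% for *ime2Δ* cells at 4 h against 0 h, 30.7% and 31.8% for WT cells at 4 h against 0 h, 14.2% and 16.9% between the strains at 4 h, and 33.1% and 31.1% between them at 6 h.

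The 7 α ring genes were *SCL1* (YGL011C), *PRE5* (YMR314W), *PRE6* (YOL038W), *PRE8* (YML092C), *PRE9* (YGR135W), *PRE10* (YOR362C), and *PUP2* (YGR253C). Of these, 2 rose by 4 h in *ime2Δ* cells (median change 0.22) and 6 in WT cells (median change 1.25), and 6 were lower in *ime2Δ* than in WT cells at 4 h (median -0.94). The 2 of 7 in *ime2Δ* cells is near the share of all genes, and it was 3 at the 75th percentile (median 0.47) and 5 after quantile normalization (0.60). *PRE9*, which encodes the only subunit of the core that yeast can live without, had the largest strain difference of the set at 4 h. Its log2 signal in *ime2Δ* cells was 2.75 and 2.90 at 0 h, 2.93 and 3.05 at 2 h, 2.80 and 3.17 at 4 h, and 3.34 and 3.09 at 6 h. WT cells gave 2.90 and 3.09 at 0 h, 3.40 and 3.58 at 2 h, 4.23 and 4.24 at 4 h, and 3.88 and 3.57 at 6 h. The strains touched at 0 h and lay apart at every later time, with WT higher. The difference at 4 h was -1.25 ± 0.18, a ratio of 0.42 (SE, n = 2 each, limma adjusted p = 0.000243), and at 6 h it was -0.51 ± 0.18 (adjusted p = 0.0246), a call lost without WT replicate 1 at 6 h (-0.36) or *ime2Δ* replicate 2 at 6 h (-0.39).

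*PRE8* had the smallest changes of the α ring genes in *ime2Δ* cells. Its log2 signal there was 2.74 and 2.52 at 0 h, 2.76 and 2.59 at 2 h, 2.67 and 2.67 at 4 h, and 2.49 and 2.73 at 6 h. In WT cells it was 2.77 and 2.67 at 0 h, 3.13 and 3.02 at 2 h, 3.68 and 3.69 at 4 h, and 3.57 and 3.49 at 6 h. The 8 *ime2Δ* arrays span 2.49 to 2.76, and all 6 WT arrays after 0 h lie above that span. The log2 (6 h/0 h) was -0.02 ± 0.15 in *ime2Δ* cells (adjusted p = 0.932) and 0.81 ± 0.15 in WT cells (adjusted p = 0.000341), and the strain difference was -1.02 ± 0.15 at 4 h and -0.92 ± 0.15 at 6 h (limma adjusted p 0.000315 and 0.000188).

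*PRE6* was the α ring gene with the largest rise in both strains. In *ime2Δ* cells it read 2.59 and 2.76 at 0 h, 3.37 and 3.30 at 2 h, 3.34 and 3.65 at 4 h, and 3.53 and 3.68 at 6 h. The WT arrays read 2.86 and 2.58 at 0 h, 3.63 and 3.68 at 2 h, 4.30 and 4.57 at 4 h, and 3.93 and 3.80 at 6 h. Both strains left their 0 h range by 2 h, and WT arrays were higher at every later time. *PRE6* was called higher at all 3 times in *ime2Δ* cells (0.66, 0.83, and 0.94, limma adjusted p 0.00821, 0.00146, and 0.000565) and in WT cells (0.94, 1.72, and 1.15). The strain difference was -0.94 at 4 h (adjusted p = 0.00133) and -0.26 at 6 h (adjusted p = 0.196).

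Among the other α ring genes, *PRE10* behaved like *PRE6*, with changes at 2, 4, and 6 h of 0.53, 0.66, and 0.72 in *ime2Δ* cells and of 0.80, 1.45, and 0.79 in WT cells, all called. *PRE5* was 0.22 at 4 h in *ime2Δ* cells, where it did not pass the test, and rose by 1.26 in WT cells. *SCL1* was 0.27 and rose by 0.83 in the same comparisons. *PUP2* was the 1 particle subunit whose strains overlapped at 4 h, with 2.17 and 2.81 in *ime2Δ* cells and 2.49 and 3.65 in WT cells. Its replicates lay far apart in both strains, and its difference of -0.58 did not pass the test (adjusted p = 0.191).

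The 7 β ring genes were *PRE1* (YER012W), *PRE2* (YPR103W), *PRE3* (YJL001W), *PRE4* (YFR050C), *PRE7* (YBL041W), *PUP1* (YOR157C), and *PUP3* (YER094C). Of these, 4 rose by 4 h in *ime2Δ* cells (median change 0.53) and 7 in WT cells (median change 1.30), and 7 were lower in *ime2Δ* than in WT cells at 4 h (median -0.86). The 4 in *ime2Δ* cells were 5 at the 75th percentile and 7 after quantile normalization (medians 0.79 and 0.88). The proteolytic sites lie in *PRE3*, *PUP1*, and *PRE2*, which encode the caspase-like, trypsin-like, and chymotrypsin-like subunits. *PRE3* read 2.46 and 2.26 at 0 h, 2.81 and 2.79 at 2 h, 3.05 and 3.03 at 4 h, and 3.27 and 2.94 at 6 h in *ime2Δ* cells. WT cells gave 2.47 and 2.30 at 0 h, 3.15 and 3.14 at 2 h, 3.65 and 4.12 at 4 h, and 4.17 and 3.86 at 6 h. The strains overlapped at 0 h and lay apart at each later time. *PRE3* had the largest rise of the set in WT cells at 6 h, 1.63 ± 0.19 (3.09-fold, limma adjusted p = 5.67e-06), against 0.74 ± 0.19 in *ime2Δ* cells (adjusted p = 0.00545). The difference of -0.84 at 4 h was not called without WT replicate 2 at 4 h (-0.61, adjusted p = 0.054), and the difference of -0.91 at 6 h (adjusted p = 0.00113) was not called after quantile normalization.

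*PRE2* had the largest rise of the set in *ime2Δ* cells at 6 h. Its arrays there read 2.23 and 2.09 at 0 h, 2.36 and 2.67 at 2 h, 2.51 and 2.92 at 4 h, and 3.11 and 3.10 at 6 h. In WT cells they read 2.02 and 1.91 at 0 h, 2.84 and 2.99 at 2 h, 3.32 and 3.74 at 4 h, and 3.31 and 3.38 at 6 h. The strains came close again at 6 h, where the highest *ime2Δ* array read 3.11 and the lowest WT array 3.31. The change at 6 h was 0.95 ± 0.19 in *ime2Δ* cells and 1.38 ± 0.19 in WT cells (limma adjusted p 0.00116 and 2.67e-05). The strain difference was -0.82 at 4 h (adjusted p = 0.00633) and -0.24 at 6 h (adjusted p = 0.296), and the first was not called without *ime2Δ* replicate 1 at 4 h (-0.61) or WT replicate 2 at 4 h (-0.60). *PUP1*, the remaining proteolytic subunit, was 0.30 at 4 h in *ime2Δ* cells, below the threshold, and rose by 1.30 in WT cells.

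The other β ring genes do not carry proteolytic sites. *PRE1* read 1.64 and 1.97 at 0 h and 2.32 and 2.36 at 4 h in *ime2Δ* cells, and 2.03 and 1.90 at 0 h and 3.39 and 3.59 at 4 h in WT cells. Its strains overlapped at 0 h and were over 1 apart at 4 h, and the difference was -1.15 ± 0.17 at 4 h and -0.85 ± 0.17 at 6 h (limma adjusted p 0.000266 and 0.000695). *PRE7* was 0.06 at both 4 and 6 h in *ime2Δ* cells and did not pass the test, and rose by 0.87 and 0.60 in WT cells. *PRE4* rose in both strains, by 0.74 at 4 h in *ime2Δ* cells and by 1.19 in WT cells, and *PUP3* rose by 1.14 in WT cells.

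The regulatory particle's 6 ATPases, which form the ring that unfolds substrates, were *RPT1* (YKL145W), *RPT2* (YDL007W), *RPT3* (YDR394W), *RPT4* (YOR259C), *RPT5* (YOR117W), and *RPT6* (YGL048C). Of these, 2 rose by 4 h in *ime2Δ* cells (*RPT1* by 0.59 and *RPT3* by 0.59, median of the 6 0.37) and all 6 in WT cells, between 0.76 for *RPT5* and 1.23 for *RPT1* (median 1.14). At the 75th percentile and after quantile normalization all 6 were called higher in *ime2Δ* cells as well (medians 0.62 and 0.66). All 6 were lower in *ime2Δ* than in WT cells at 4 h, between -0.85 for *RPT6* and -0.55 for *RPT5* (median -0.77), and *RPT2* alone at 6 h (-0.47, limma adjusted p = 0.0366). The strain difference of *RPT5* was the smallest of the 31 called at 4 h.

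The 4 other base subunits were *RPN1* (YHR027C) and *RPN2* (YIL075C), the large scaffold subunits, and *RPN10* (YHR200W) and *RPN13* (YLR421C), which bind ubiquitin. At 4 h, 0 passed the test in *ime2Δ* cells relative to the array median (median change 0.27), whereas all 4 did at the 75th percentile (0.52) and after quantile normalization (0.60), and all 4 rose in WT cells (median 1.09). All 4 were lower in *ime2Δ* than in WT cells at 4 h (median -0.84) and 0 were at 6 h (median -0.01, and 0.27 and 0.30 in the other scalings, where 1 was higher after quantile normalization). All 4 also fell in WT cells between 4 and 6 h, with a median of -0.68. *RPN13* read 1.91 and 1.85 at 0 h, 1.96 and 1.99 at 2 h, 2.01 and 2.22 at 4 h, and 2.38 and 2.22 at 6 h in *ime2Δ* cells. In WT cells it read 1.93 and 1.95 at 0 h, 2.39 and 2.25 at 2 h, 2.97 and 2.93 at 4 h, and 2.36 and 2.02 at 6 h. The WT arrays stood above the *ime2Δ* arrays at 2 and 4 h, and the strains overlapped at 6 h. *RPN13* was -0.84 ± 0.16 at 4 h (limma adjusted p = 0.00171) and 0.11 ± 0.16 at 6 h (adjusted p = 0.555), and the WT change from 4 to 6 h was -0.76 ± 0.16 (adjusted p = 0.00166).

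The 8 lid subunits were *RPN3* (YER021W), *RPN5* (YDL147W), *RPN6* (YDL097C), *RPN7* (YPR108W), *RPN8* (YOR261C), *RPN9* (YDR427W), *RPN11* (YFR004W), and *RPN12* (YFR052W). They had the lowest median strain difference of the 5 groups of subunits at both late times, -1.08 at 4 h, where all 8 were called lower in *ime2Δ* cells, and -0.60 at 6 h, where 6 were. At 6 h it was 2 at the 75th percentile and 1 after quantile normalization (medians -0.32 and -0.16). At 4 h 2 of them had risen in *ime2Δ* cells (*RPN3* by 0.49 and *RPN8* by 0.47, median of the 8 0.21) and all 8 in WT cells (median 1.23). The 2 of 8 in *ime2Δ* cells is near the share of all genes, and in the other scalings 3 had risen there (medians 0.46 and 0.53). *RPN12* read 3.30 and 3.32 at 0 h, 3.34 and 3.35 at 2 h, 3.33 and 3.44 at 4 h, and 3.67 and 3.53 at 6 h in *ime2Δ* cells. The WT arrays read 3.33 and 3.38 at 0 h, 3.63 and 3.73 at 2 h, 4.77 and 4.49 at 4 h, and 4.33 and 3.73 at 6 h. The first 6 *ime2Δ* arrays lie within 3.30 to 3.44, and the WT arrays at 4 h all lie over 1 above them. The difference was -1.24 ± 0.19 at 4 h, a ratio of 0.422 (limma adjusted p = 0.00036), and -0.43 ± 0.19 at 6 h (adjusted p = 0.0602).

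*RPN11* encodes the enzyme that cuts the ubiquitin chain off the substrate, and *RPN8* its partner in the lid. *RPN11* read 2.27 and 2.62 at 0 h, 1.98 and 2.25 at 2 h, 1.91 and 2.20 at 4 h, and 1.93 and 2.25 at 6 h in *ime2Δ* cells. WT cells gave 2.46 and 2.46 at 0 h, 2.37 and 2.42 at 2 h, 3.09 and 3.17 at 4 h, and 2.50 and 2.81 at 6 h. All 6 *ime2Δ* arrays after 0 h lay below both at 0 h, and in WT cells the 4 h arrays were the highest. The changes in *ime2Δ* cells were -0.33, -0.39, and -0.35 at 2, 4, and 6 h and did not pass the test (limma adjusted p 0.184, 0.106, and 0.133), but with the replicate number as a block the change at 4 h was called (adjusted p = 0.0382). *RPN11* and *RPN4* were the only 2 of the 34 with a negative change at all 3 times there. In WT cells *RPN11* rose by 0.67 ± 0.19 at 4 h (adjusted p = 0.00771) and was at 0.19 at 6 h. The strain difference was -1.08 ± 0.19 at 4 h (adjusted p = 0.00101) and -0.56 ± 0.19 at 6 h (adjusted p = 0.0196). The second was not called without *ime2Δ* replicate 1 at 6 h (-0.40) or WT replicate 2 at 6 h (-0.41).

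*RPN8* read 2.20 and 2.39 at 0 h, 2.43 and 2.60 at 2 h, 2.58 and 2.94 at 4 h, and 2.95 and 2.82 at 6 h in *ime2Δ* cells. In WT cells it read 2.24 and 2.44 at 0 h, 2.82 and 2.98 at 2 h, 3.96 and 3.74 at 4 h, and 3.78 and 4.03 at 6 h. The step from 4 to 6 h in WT cells was 0.06 ± 0.18 for *RPN8* (adjusted p = 0.789). *RPN8* rose by 0.59 ± 0.18 in *ime2Δ* cells and by 1.57 ± 0.18 in WT cells at 6 h (limma adjusted p 0.0142 and 4.45e-06), and the strain difference was -1.09 ± 0.18 at 4 h and -1.02 ± 0.18 at 6 h (adjusted p 0.000642 and 0.000305). Of the remaining lid genes, *RPN5* (-1.18), *RPN7* (-1.16), *RPN9* (-1.04), *RPN6* (-0.86), and *RPN3* (-0.71) were lower in *ime2Δ* than in WT cells at 4 h, and all of these but *RPN5* (-0.18) also at 6 h. *RPN7* varied widely between the *ime2Δ* replicates, with 1.35 and 2.12 at 4 h against 2.75 and 3.04 in WT cells, and for WT replicate 1 at 4 h its value rests on 1 of the 2 spots.

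*RPN14* (YGL004C) encodes a chaperone that helps the base to assemble and leaves the finished particle. It read -0.22 and -0.52 at 0 h, 0.07 and 0.01 at 2 h, 0.04 and 0.18 at 4 h, and 0.30 and 0.00 at 6 h in *ime2Δ* cells. The WT arrays read -0.62 and -0.49 at 0 h, -0.15 and -0.20 at 2 h, 0.19 and 0.20 at 4 h, and 0.53 and 0.62 at 6 h. Its WT arrays lay higher at each later time, up to 6 h. *RPN14* rose at 6 h by 0.52 ± 0.16 in *ime2Δ* cells and by 1.13 ± 0.16 in WT cells (limma adjusted p 0.015 and 3.38e-05). The strain difference was -0.09 at 4 h (adjusted p = 0.72) and -0.42 at 6 h (adjusted p = 0.0358), and the call at 6 h was lost without either WT array at 6 h or *ime2Δ* replicate 2 at 6 h.

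**Figure D4:**
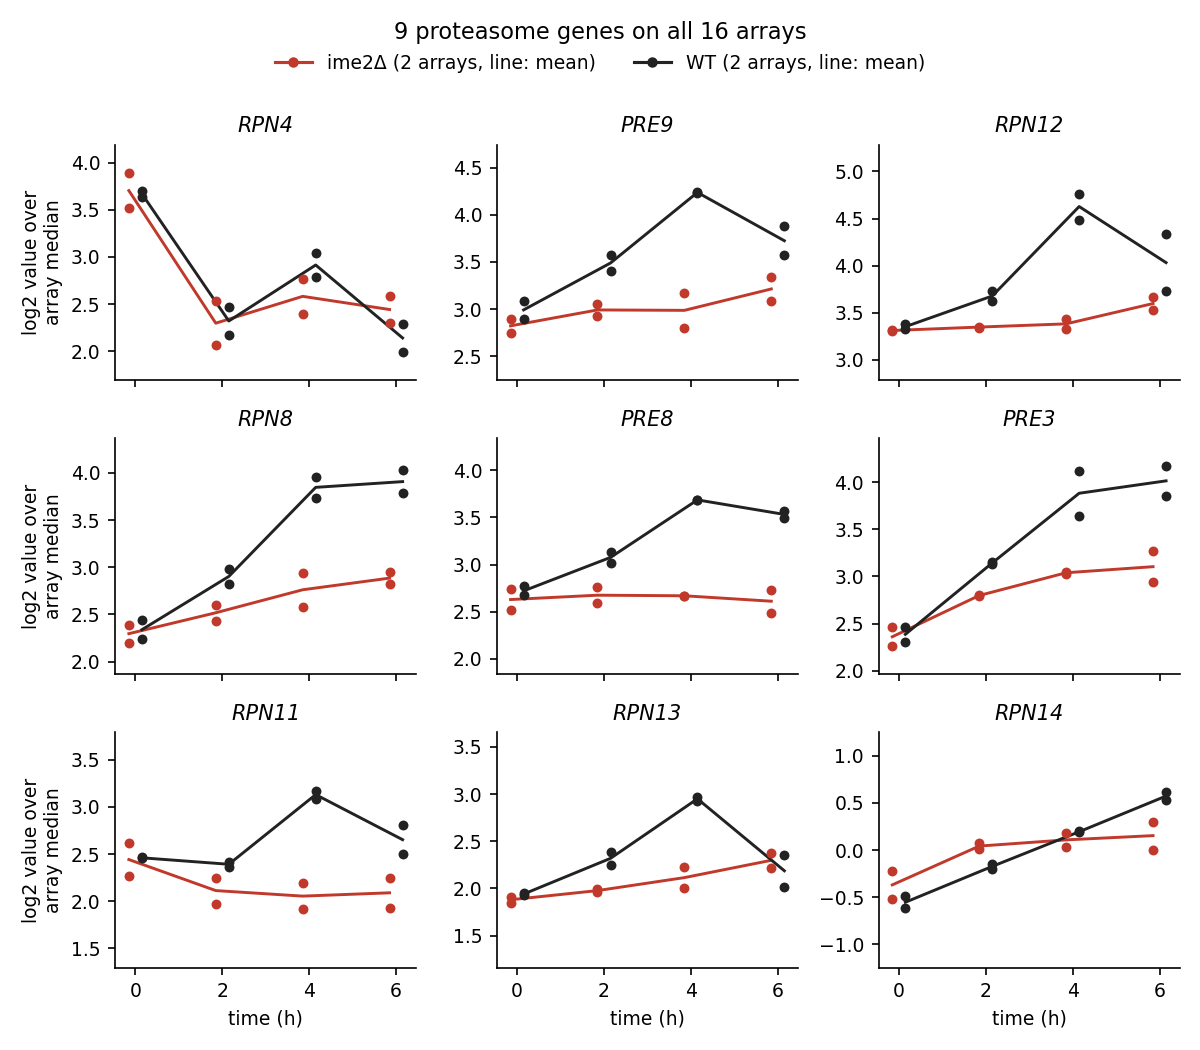
Log2 signal relative to the array median (y axis) at 0, 2, 4, and 6 h (x axis) on each of the 16 arrays for *RPN4*, *PRE9*, *RPN12*, *RPN8*, *PRE8*, *PRE3*, *RPN11*, *RPN13*, and *RPN14*, with *ime2Δ* and WT arrays in different colours and lines through the group means. The WT arrays at 4 h stand above the *ime2Δ* arrays in each panel, by least in *RPN14* (0.19 and 0.20 against 0.04 and 0.18).

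**Figure D5:**
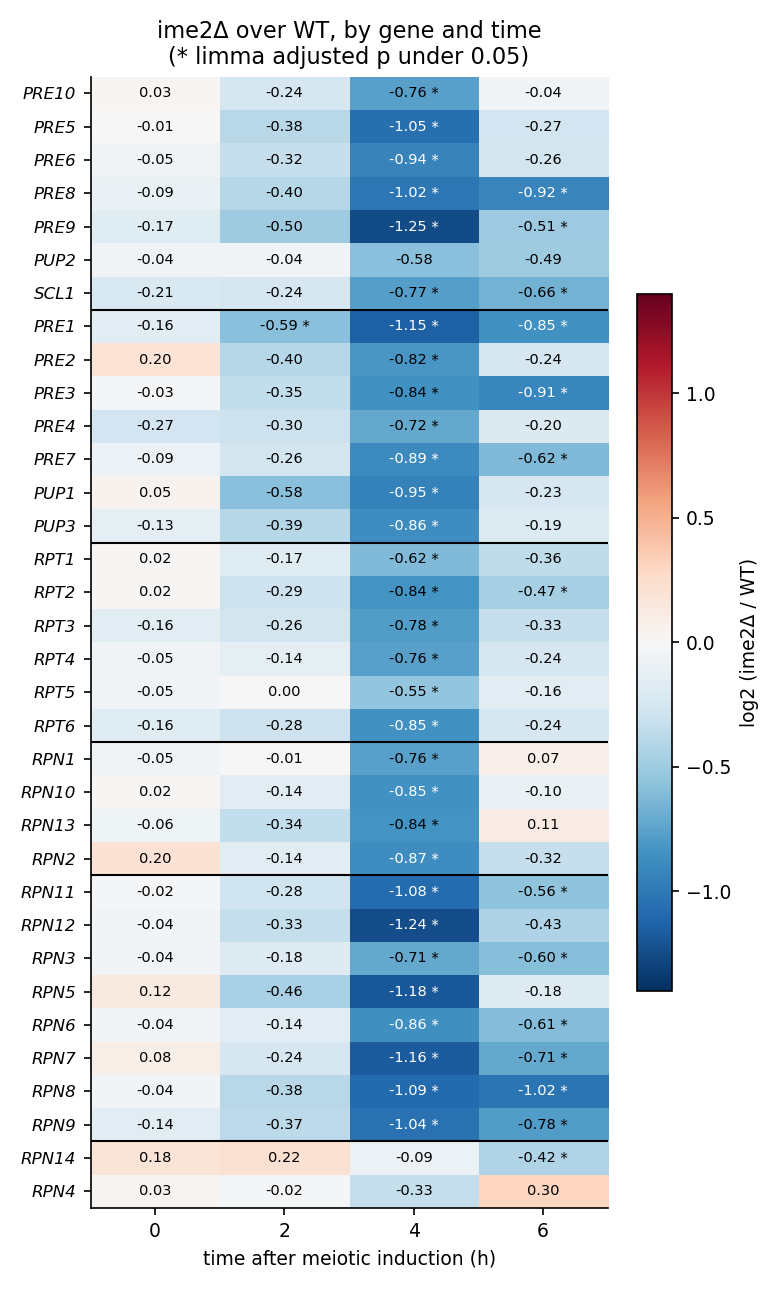
Heat map of log2 (*ime2Δ*/WT) for the 34 genes (rows, by place in the particle) at 0, 2, 4, and 6 h (columns), with an asterisk where limma called the gene. Asterisks fill the column of 4 h in all rows but *PUP2*, *RPN4*, and *RPN14*, number 1 at 2 h and 14 at 6 h, and are missing at 0 h.

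Most particle subunits followed their common median over the time course. Over the 16 arrays, the correlation of each of the 32 with their median level lay between 0.66 (*RPN11*) and 0.98 (*RPT3*), with a median of 0.925, and 23 of them stood among the 100 genes of the array most like that median. These arrays share slides and the 8 groups and may share cultures, and the subunits are part of the median, so the values are a description. *RPN14* had 0.69 and *RPN4* had -0.44. The genes outside the set with the highest values were *CST9* (0.971), a gene of meiotic chromosome synapsis, *LDB16* (0.968) of lipid droplets, *YPI1* (0.960), a phosphatase regulator, *RAD52* (0.956) of recombination, and *SPO1* (0.951) of sporulation. Their log2 (4 h/0 h) in WT cells was 2.24, 1.04, 1.50, 1.39, and 2.82, and their strain difference at 4 h was -1.86, -0.68, -1.06, -1.26, and -1.46. The genes of the set lie on 13 of the 16 chromosomes, and only *PRE4* with *RPN12* and *RPT4* with *RPN8* lie close, each pair with 1 gene between them.

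Factors that build the proteasome were read alongside it. Of 10 assembly factors, 5 rose and 1 fell by 4 h in *ime2Δ* cells (median change 0.52), and 7 rose and 1 fell in WT cells (median 0.90). Of these, 4 were lower in *ime2Δ* than in WT cells at 4 h (median of the 10 -0.37): *UMP1*, the maturation factor of the core, at -0.83, *NAS2*, a chaperone of the base, at -0.79, and *IRC25* and *ADD66*, chaperones of the α ring, at -0.72 and -0.52. At 6 h 1 of the 10 was higher and 1 lower (median 0.14), and at the 75th percentile 4 were higher and 1 lower (median 0.43). *UMP1* read 2.01 and 2.09 at 0 h, 2.83 and 2.87 at 2 h, 3.02 and 3.22 at 4 h, and 3.49 and 3.27 at 6 h in *ime2Δ* cells. WT cells gave 2.23 and 2.19 at 0 h, 3.04 and 3.09 at 2 h, 4.07 and 3.85 at 4 h, and 3.24 and 2.85 at 6 h. It rose in both strains, and its WT arrays were the higher ones until 4 h and not at 6 h. *FUB1*, related to a proteasome inhibitor of mammals, rose to the same extent in both, by 1.46 at 4 h in *ime2Δ* cells and by 1.46 in WT cells (limma adjusted p of the strain difference 0.458).

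Of 6 proteins that attach to the particle, 4 rose by 4 h in *ime2Δ* cells (median 0.60) and 6 in WT cells (median 0.90), and 1 was lower in *ime2Δ* than in WT cells at 4 h. That was *SEM1*, the smallest lid subunit, which the naming rule does not cover. *SEM1* read 1.18 and 1.53 at 4 h and 1.48 and 1.36 at 6 h in *ime2Δ* cells, and 2.03 and 2.52 at 4 h and 2.88 and 2.95 at 6 h in WT cells. The strains did not overlap at either time, and the difference was -0.92 at 4 h and -1.49 at 6 h (limma adjusted p 0.00262 and 1.96e-05). *ECM29*, which tethers the regulatory particle to the core, rose by 1.80 in *ime2Δ* cells and by 1.47 in WT cells at 4 h. *BLM10*, an activator that caps the core in place of the regulatory particle, was at 1.07 in *ime2Δ* cells and at 0.01 in WT cells at 6 h, and was higher in *ime2Δ* cells then, by 0.75 (adjusted p = 0.00894). *UBP6*, a deubiquitinating enzyme of the base, rose in WT cells at 4 h by 0.99 and was at 0.26 in *ime2Δ* cells, with a strain difference of -0.46 (adjusted p = 0.163).

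Upstream of the particle, 17 genes of ubiquitin, its conjugation and the delivery of substrates were read. Of these, 3 rose and 3 fell by 4 h in *ime2Δ* cells (median 0.10), and 9 rose and 0 fell in WT cells (median 0.43). The shares in *ime2Δ* cells lie under those of all genes. At 4 h 7 were lower in *ime2Δ* than in WT cells and 0 were higher (median -0.68): *UFD1* (-1.22) and *NPL4* (-0.86), which work with the unfoldase Cdc48, the shuttle factors *DDI1* (-0.92), *DSK2* (-0.88), and *RAD23* (-0.88), and the conjugating enzymes *UBC5* (-0.73) and *RAD6* (-0.68). At 6 h 1 was higher and 4 were lower (median 0.04), and at the 75th percentile 6 were higher and 2 lower (median 0.32). *UBC5* had the largest rise of this list in both strains, 2.24 in *ime2Δ* cells and 2.60 in WT cells at 4 h. *CDC48* itself was -0.40 at 4 h (limma adjusted p = 0.101). *UBI4*, the polyubiquitin gene, was -0.34 at 4 h and -0.44 at 6 h and was called in no comparison.

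The 4 transcription factor genes known to act on *RPN4* (*YAP1*, *PDR1*, *PDR3*, and *HSF1*) were read last. Of these, 3 rose by 4 h in *ime2Δ* cells (median 0.63) and 3 in WT cells (median 0.70), and 0 were called different between the strains at 4 h (median -0.06). *HSF1*, the heat shock factor, was 0.55 in *ime2Δ* cells and 0.98 in WT cells at 4 h. At 6 h *PDR3*, a regulator of drug resistance genes, was 0.92 higher in *ime2Δ* than in WT cells (limma adjusted p = 0.000148), with changes of 0.86 in *ime2Δ* cells and 0.03 in WT cells. It was the 1 of the 4 called at 6 h relative to the array median (median of the 4 0.38). At the 75th percentile 3 were higher then (median 0.66), and after quantile normalization 2 were (median 0.50).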

How the data were processed

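Agilent Yeast 60-mer arrays of WT and *ime2Δ* cells were processed by the authors with Feature Extraction 10.7.1.1, which subtracted background and detrended the signal. They deposited the resulting spot intensities, unscaled between arrays, and a table of log2 values set relative to array medians, which served as an alternative here. For this work the log2 intensities of the 2 spots of a probe were averaged, without outlier spots (0 to 13 of 12512 per array, 0 saturated), and the array median was subtracted. Groups followed the strain and time in the labels. Symbols came from RefSeq, in which 5756 of 6256 systematic names matched a locus tag.

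All 6254 genes were fitted with limma 3.58.1 in R 4.3.3 (lmFit, eBayes) to the 8 groups, with 8 residual and 4.58 prior degrees of freedom. Between 96.0% and 98.8% of genes were well above background, and replicates correlated at r = 0.988 to 0.994. The number of arrays limits the precision.

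The genes and lists were chosen with earlier results of these data known. Values on every array are given for *RPN4* and for the 2 highest and 2 lowest genes in 4 comparisons (6 h against 0 h in each strain, and the strains at 4 and 6 h), with *PRE1*, *PUP2*, *RPN7*, *UMP1*, and *SEM1* added after their values were seen. In the lists of assembly factors, attached proteins and ubiquitin genes, the genes called between the strains at 4 h are named. In each associated list genes with the largest called changes are named, with *UBP6*, *BLM10*, *CDC48*, and *UBI4* added for their roles. Median intensity stood in for mean intensity in the normexp alternative. Probe and promoter sequences were not analysed here.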

Additional observations from a re-analysis of the deposited data

Results flagged for a closer look

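In 27 cases the change of a single gene from 0 h differed between the strains by limma's test of that difference, and in all of them the gene changed less in *ime2Δ* than in WT cells. At 4 h there were 19, beside 9.37% of all genes that changed less, with the difference of log2 changes as follows. In the lid these were *RPN12* (-1.20, adjusted p = 0.00965), *RPN11* (-1.06), *RPN8* (-1.04), *RPN9* (-0.90), and *RPN6* (-0.82). In the base they were *RPN2* (-1.08), *RPN10* (-0.87), *RPN13* (-0.78), *RPT2* (-0.86), and *RPT4* (-0.71, adjusted p = 0.0483). In the α ring they were *PRE9* (-1.08), *PRE5* (-1.04, adjusted p = 0.00486), *PRE8* (-0.92), *PRE6* (-0.89), and *PRE10* (-0.79). In the β ring they were *PRE2* (-1.01), *PUP1* (-0.99), *PRE1* (-0.99), and *PRE7* (-0.80).

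At 6 h there were 8, beside 25% of all genes that changed less, so that this count is near the share of all genes. The 8 genes were *RPN8* (-0.98, adjusted p = 0.00666), *PRE3* (-0.88), *PRE8* (-0.83), *PRE1* (-0.70), *RPN9* (-0.63), *RPN14* (-0.60), *RPN6* (-0.57), and *PRE7* (-0.53). *RPN14* and *PRE3* stood in this group and not in that of 4 h. *PRE3* was close to the threshold at 4 h, with a difference of -0.82 (limma adjusted p = 0.0583), and was called there with either block. *RPN14* was at -0.27 at 4 h (limma adjusted p = 0.462). The 4 h and 6 h tests share the arrays at 0 h.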

How the results depend on the processing

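The set's median difference between *ime2Δ* and WT cells at 4 h kept its direction under every setting tried (-0.95 to -0.75), as did the WT change at 4 h (1.07 to 1.56), while the strain difference at 6 h lay between -0.37 and 0.15. Over all pairs of a called single-gene result and an alternative, 4449 kept the call, 890 kept the direction only, and 1 turned: *RPT2* between the strains at 6 h, 0.0098 after quantile normalization against -0.47. In the order *ime2Δ* 2, 4, and 6 h and WT 2 h against 0 h, strains at 6 h, difference of change at 6 h, and WT 6 h against 4 h, the genes called numbered 8, 12, 16, 18, 14, 8, and 16. With the 75th percentile they numbered 20, 23, 27, 32, 6, 1, and 27, and with quantile normalization 21, 27, 28, 31, 5, 0, and 30. Normexp gave 3 for *ime2Δ* at 2 h and 9 and 5 for the difference of change at 4 and 6 h. A fit of only the groups compared gave 2, 7, and 10 for *ime2Δ* at 2, 4, and 6 h, 0 and 5 for the strains at 2 and 6 h, 11 and 3 for the difference of change at 4 and 6 h, and 16 and 3 for the WT steps to 4 h and to 6 h. With a log2 difference of at least 1, there were 1, 1, and 1 for *ime2Δ* at 2, 4, and 6 h, 1 and 10 for WT at 2 and 6 h, 0, 10, and 1 for the strains at 2, 4, and 6 h, 7 and 0 for the difference of change, and 0 and 0 for the WT steps. The share of higher among all called genes moved with the 75th percentile to 66.8%, 63.2%, and 62.1% (*ime2Δ*, from 44.4%, 46.6%, and 44.9% with the median), 63.9% (WT at 2 h, from 45.0%), 64.4% (strains at 6 h, from 51.6%), 63.9% (difference of change at 6 h, from 50.03%), and 34.4% (WT 6 h against 4 h, from 47.9%), and with quantile normalization to 45.5% for the strains at 0 h (from 30.1%).

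Same-numbered replicates deviated together only in part (r 0.075 to 0.535 over 28 pairs of groups, 26 over 0.1), and with the replicate number as a block 2 genes were called between the strains at 2 h in place of 1, 31 at 4 h, 15 at 6 h, and 25 and 10 in the difference of change at 4 and 6 h. For the changes from 0 h, 8, 13, and 19 were then higher in *ime2Δ* cells at 2, 4, and 6 h and 18, 33, and 31 in WT cells, with *RPN11* lower besides *RPN4* in *ime2Δ* cells at 4 h, and 30 were higher in the WT step to 4 h. With the culture as a random block 27 and 9 were called in the difference of change, 31 and 14 between the strains at 4 and 6 h, and 30 in the WT step to 4 h. Neither block lost a call. Leaving out 1 array gave 1 to 5, 5 to 12, and 7 to 13 genes for *ime2Δ* at 2, 4, and 6 h, 10 to 12, 33, and 24 to 27 for WT, 0 to 0 for the strains at 0 and 2 h, 20 to 32 at 4 h, 10 to 12 at 6 h, 0, 4 to 20, and 2 to 8 for the difference of change, 6 to 26 and 7 to 13 for the WT steps, and 0 for the *ime2Δ* steps. Why these counts moved was not tested. With 2 arrays a group, a gene that was not called is not shown to be unchanged.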

Other observations

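The E3 ligases that mark substrates for the proteasome were described by the same fit, in which 14.2% of all genes were higher and 16.9% lower in *ime2Δ* than in WT cells at 4 h, and 33.1% and 31.1% at 6 h. Of 16 genes of the anaphase-promoting complex and its activators, 11 rose and 1 fell by 4 h in *ime2Δ* cells (median 0.87), and 15 rose in WT cells (median 1.86). Of all genes, 23.4% rose and 26.9% fell by 4 h in *ime2Δ* cells, and 30.7% rose in WT cells. At 6 h, 11 of the 16 rose in *ime2Δ* cells (median 1.08), beside 24.5% of all genes. In WT cells all 16 rose (median 4.35), beside 35.3% of all genes. The strain difference of the 16 had a median of -1.05 at 4 h, with 13 lower, and of -3.57 at 6 h, with 15 lower. The 34 proteasome genes had median strain differences of -0.85 at 4 h and -0.34 at 6 h, and whether the lists differ was not tested. *CDC27*, a core subunit of the complex, was -5.00 between the strains at 6 h, with a change from 0 h of 0.02 in *ime2Δ* cells and 5.08 in WT cells. *AMA1*, its meiosis-specific activator, rose in both, by 4.69 in *ime2Δ* cells and by 5.66 in WT cells at 6 h.

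Of 7 SCF genes, 1 was higher and 3 were lower in *ime2Δ* than in WT cells at 4 h (median -0.29), and 2 were higher and 5 lower at 6 h (median -0.48). At 6 h it was 2 higher and 2 lower at the 75th percentile and after quantile normalization, and 2 of 7 is near the share of all genes. *CDC53*, the cullin, rose by 1.11 in *ime2Δ* cells and by 1.74 in WT cells at 4 h. *GRR1*, an F-box protein of nutrient signaling, was -2.70 between the strains at 6 h, and *MET30*, an F-box protein of sulfur metabolism, was 0.97 higher in *ime2Δ* cells at 4 h.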
